A study of Mus musculus with 6 samples.

Results

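The cells described are somatic cells of the XX mouse gonad at E11.5 (embryonic day counted from conception), set against cells taken by the same rule at E10.5, and they were chosen by measured values. A barcode was kept if it had 500 or more genes detected and no more than 10% of its UMIs from mitochondrial genes. It then had to hold at least 1 UMI of Gata4, at least 1 UMI of Wt1 and fewer than 3 summed UMIs of the germ cell genes Dazl, Ddx4, Dppa3, Dppa5a and Pou5f1. At E11.5 this selected 1216 of 2720 kept barcodes, a share of 44.7% (exact 95% interval 42.8% to 46.6%), against 134 of 6259 at E10.5, a share of 2.14% (1.80% to 2.53%). Together they are 1350 of the 29398 barcodes of the series.

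Gene expression was counted in droplet single-cell libraries (10x Chromium 3′ v2), in which a UMI marks 1 captured mRNA molecule. The E11.5 library and the E10.5 library were each made from XX gonads of ICR mice dissociated with papain, and neither stage carried an engineered allele or a treatment. Whether several embryos were pooled is not given in the sources used here. Later ICR XX gonad libraries (E12.5, E13.5, E14.5), and a library of gonad somatic cells differentiated from 129svj x C57BL/6J embryonic stem cells and collected on day 6 (Induced D6), are used only to place values in a wider series. Each stage is 1 library with no replicate, so no test between stages was possible and every interval given covers counting error only. A difference between stages cannot be told apart from a difference between these libraries.

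GATA4, a zinc finger factor, and WT1, the Wilms tumour factor, are both needed for the thickening of the coelomic epithelium into the genital ridge. Within the ridge the LIM homeodomain factor LHX9, the homeodomain factor EMX2 and the orphan nuclear receptor NR5A1 (SF1) mark the epithelium and the somatic cells that leave it. In XX embryos these cells become pregranulosa cells, the supporting cells of the ovary, under RSPO1 and WNT4 signalling and later FOXL2, while in XY embryos the same precursors become Sertoli cells.

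The values that chose the cells differed in depth between the stages. Among the selected cells the median was 13012.5 UMIs at E11.5, against 8104 UMIs at E10.5. Exactly 1 Gata4 UMI carried the choice in 41.3% of E11.5 cells, against 76.1% of E10.5 cells, and exactly 1 Wt1 UMI in 5.67%, against 41.8%. Just outside the rule lay 895 E11.5 and 1084 E10.5 kept barcodes with Wt1 but no Gata4 UMI, and 56 and 96 with Gata4 but no Wt1 UMI. At E11.5 5 selected cells had exactly 2 germ cell UMIs and 18 barcodes with 3 or more were left out, while both numbers were 0 at E10.5. With every kept barcode thinned to 3000 UMIs first, the rule took 13.8% of barcodes (12.49% to 15.1%) at E11.5, against 0.606% (0.422% to 0.841%) at E10.5. The thinned shares leave out 40 shallower barcodes at E11.5 and 479 at E10.5, none of them selected cells. The libraries shared 20 barcode sequences, none of them among the selected cells.

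The markers of gonadal epithelium bore out the label unevenly. A Nr5a1 UMI was present in 49.0% of the E11.5 cells, against 14.9% of the E10.5 cells, and a Krt18 UMI in 53.6%, against 60.4%. At least 1 Lhx9 UMI was present in 91.0% of the E11.5 cells, against 53.7% of the E10.5 cells, and at least 1 Emx2 UMI in 90.0%, against 45.5%. After thinning to 3000 UMIs the Lhx9 share was 67.8% (65.1% to 70.5%) at E11.5, against 37.3% (29.1% to 46.1%) at E10.5. In endothelial cells of the same libraries, which should lack Lhx9 and were taken as barcodes with Pecam1 and Cdh5 UMIs, the thinned share was 6.25% of 64 cells (median 22567.5 UMIs) at E11.5, against 0 of 140 at E10.5 (median 12230.5 UMIs), which allows up to 2.14%. The Lhx9 share of the selected cells therefore lay above this background at both stages. All 10 gonadal epithelium markers were at 10 CPM (UMI counts per 1000000 UMIs of the summed cells) or more at both stages. Of these, 4 (Lhx9, Emx2, Nr5a1 and Podxl) had a higher level at E11.5 and 6 (Krt8, Krt18, Krt19, Upk3b, Cdh2 and Aldh1a2) a lower one. They summed to 1282 CPM at E11.5, against 1016 CPM at E10.5, and to 1325 CPM, against 1339 CPM, among cells with an Lhx9 UMI. A Upk3b UMI was present in 26.7% of E11.5 cells, against 39.6% of E10.5 cells. Stromal transcripts were present at both stages. The 12 stroma or mesenchyme markers summed to 538 CPM at E11.5, against 736 CPM at E10.5, and the stromal factor gene Nr2f2 was detected in 76.8% of E11.5 cells, against 74.6% of E10.5 cells. The cells are therefore called double-positive cells below.

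The E10.5 cells also carried transcripts of other mesoderm. The 12 markers of splanchnic and gut mesoderm summed to 7.89 CPM at E11.5, against 165 CPM at E10.5, with Foxf2, Nkx2-3, Hand1 and Nkx2-5 at 0 at E11.5 and Tlx1, Nkx2-5 and Tbx5 at 0 at E10.5. Isl1, a factor of splanchnic and hindlimb mesoderm, stood at 0.392 CPM at E11.5, against 28.4 CPM at E10.5, and Hand1 at 0, against 23.7 CPM. The 12 paraxial and muscle markers summed to 10.0 CPM, against 64.0 CPM, of which the somite factor Meox1 gave 0, against 26.8 CPM. The 10 neural and neural crest markers summed to 3.09 CPM, against 52.1 CPM, and the 8 renal and intermediate mesoderm markers to 99.7 CPM, against 272 CPM. Of the renal sums Meis1 alone made 91.4 and 167 CPM, and Six2 and Gdnf were at 0 at both stages. Among the 72 E10.5 cells with an Lhx9 UMI the splanchnic sum was 60.2 CPM, the paraxial sum 65.9 CPM and the neural sum 47.3 CPM. The part of these cells in the differences below was not tested; the ratio among cells with an Lhx9 UMI (1106 at E11.5, 72 at E10.5) is given beside many of them.

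Markers of vessels, leukocytes, liver and germ cells summed to less than 100 CPM at either stage. The endothelial list of 12 summed to 76.6 CPM at E11.5, against 86.9 CPM at E10.5, of which Egfl7 alone made 31.5 and 70.3 CPM, and Cdh5 and Tie1 were at 0 at E10.5. The erythroid list summed to 518 CPM, against 232 CPM, set beside 44551 and 18427 CPM in the unselected cells of the same libraries. A single E11.5 cell held 8786 of the 10566 erythroid UMIs, and without it the sum was 87.3 CPM at E11.5, under the E10.5 value. Germ cell markers summed to 17.8 CPM, against 6.32 CPM. That list includes Dazl, Ddx4, Dppa3, Dppa5a and Pou5f1, which the rule capped, so its low sum was in part fixed by the choice of cells. Leukocyte markers summed to 4.51 CPM, against 8.69 CPM, and hepatic markers to 2.99 CPM, against 3.95 CPM. The 12 mesonephric tubule and duct markers summed to 52.2 CPM, against 59.2 CPM, with Lhx1 at 0 at both stages.

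Summed over the cells, the E11.5 profile rested on 20402709 UMIs, against 1266367 UMIs at E10.5. A count of 3 UMIs, used as the level of a gene with 0 UMIs, is 0.147 CPM at E11.5 and 2.37 CPM at E10.5, so low genes were measured more closely at E11.5. Of 8519 genes with at least 10 CPM in either sum, 1034 (12.1%) were at least 2-fold higher at E11.5 and 693 (8.13%) at least 2-fold lower. At least 4-fold, the numbers were 454 (5.33%) higher and 163 (1.91%) lower, and the median log2 ratio over all 8519 genes was -0.06. Of the 454, 83 had no UMI at E10.5 and 162 had 1 to 3, while 5 of the 163 had none at E11.5. A gene seen at 1 stage only passed the floor through that stage, so such a gene had to differ. Higher and lower are used below for a ratio of at least 2-fold, with no test behind it. With at least 2 UMIs of Gata4 and of Wt1 required, which left 22 E10.5 cells, the 2-fold mark was missed by Lhx9, Kitl, Foxl2, Dmrt1, Star, Boc, Aldh1a1, Hey1, Ndrg1, Igfbp6, Hspa1a and Col6a1, among the genes named below that were followed. Genes chosen after their values were seen were not followed. Cdkn1c and Maml3 fell just under it without cells holding Foxf1, Foxd1, Pax2 or Pax8 UMIs.

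**Figure D1:**
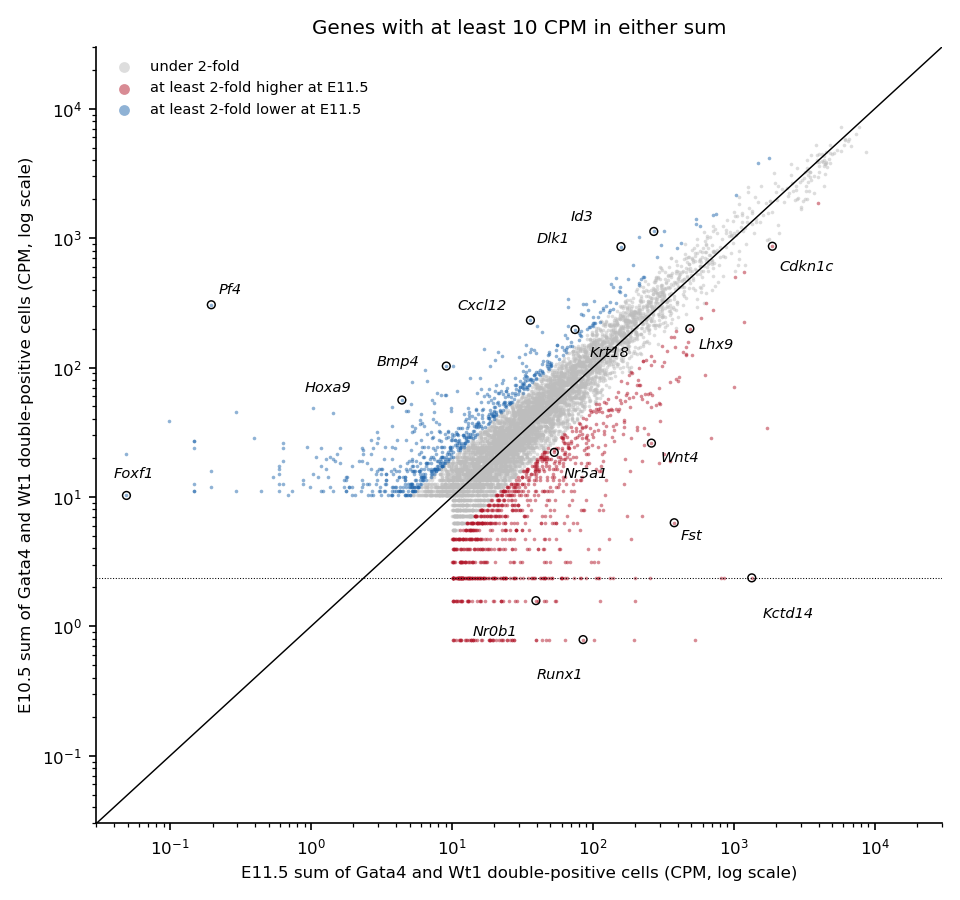
Each point is a gene with at least 10 CPM in either sum, with its E11.5 level on the horizontal and its E10.5 level on the vertical log axis, and genes with 0 UMIs are drawn at the level of 3 UMIs (dotted line for E10.5). Points below the diagonal are higher at E11.5, among them Kctd14, Fst and Runx1 at or under 8 E10.5 UMIs, and Pf4, Foxf1 and Hoxa9 lie above it.

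The scatter of all genes shows a dense band along the diagonal with a sparser set of genes on the E11.5 side that were near the detection limit at E10.5. The genes on the E10.5 side had, with few exceptions, UMIs at both stages.

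Transcription factors of the genital ridge were already present at E10.5, and the best-known of them stood over 2-fold higher at E11.5. Lhx9 (chr1:138825186-138848577, minus strand, GRCm38) had 487 CPM at E11.5, against 199.8 CPM at E10.5, a ratio of 2.44 (2.15 to 2.77). Emx2 (chr19:59458372-59465357, plus strand) had 260 CPM, against 104 CPM, a ratio of 2.49 (2.10 to 2.98). Nr5a1 (chr2:38692656-38714542, minus strand) had 53.2 CPM, against 22.1 CPM, a ratio of 2.41 (1.65 to 3.64). Among cells with an Lhx9 UMI these ratios were smaller, 1.42 for Lhx9, 1.66 for Emx2 and 1.45 for Nr5a1, the first of them in cells chosen on that gene. Each was thus under 2-fold when cells without Lhx9 were set aside.

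Nr0b1 (DAX1), an X-linked antagonist of NR5A1, differed most in this group, with 39.4 CPM at E11.5, against 1.58 CPM (2 UMIs) at E10.5, a ratio of 25.0 (6.88 to 206) that was again 25.0 among cells with an Lhx9 UMI. Cited2, a coactivator upstream of Nr5a1, had 310 CPM, against 148 CPM. Zfpm2 (FOG2), the GATA4 partner, had 24.4 CPM, against 12.6 CPM, under the 2-fold mark. Gata6 had 163 CPM, against 126 CPM, and Tcf21 70.6 CPM, against 71.1 CPM. On the other side lay Osr1, a zinc finger factor of early intermediate mesoderm, with 2.94 CPM at E11.5, against 31.6 CPM at E10.5 (10.7-fold lower, 7.01 to 16.3), and Zfpm1 and Sox11. Six4 had 2.35 CPM, against 3.95 CPM, and the Polycomb gene Cbx2 17.5 CPM, against 31.6 CPM. In all, 17 of the 20 listed factors passed the floor, 5 of them higher and 3 lower, against 12.1% and 8.13% of all genes. Of the 17, 1 (Nr0b1) passed through E11.5 alone and 2 (Osr1 among them) through E10.5 alone, so their direction was set by the floor. The median log2 ratio of the 17 was 0.38, and it was -0.03 among cells with an Lhx9 UMI.

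The selecting genes themselves are given only as a description. Gata4 had 146 CPM at E11.5, against 144 CPM at E10.5, and Wt1 459 CPM, against 238 CPM. From E12.5 to E14.5 Lhx9 stood at 388, 226 and 198 CPM, Emx2 at 212, 180.1 and 143 CPM, and Nr5a1 at 55.4, 48.9 and 45.7 CPM. In Induced D6 cells taken by the same rule Lhx9 had 79.4 CPM, Emx2 162 CPM and Nr5a1 68.2 CPM. Of the in vivo stages, E11.5 therefore had the highest Lhx9 and Emx2 levels.

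Promoter sequence is shown for Lhx9 and Emx2, ridge factors that did not enter the choice of cells, and for Akr1cl and Pnlip, leading E11.5 genes picked after the search because they hold the GATA motif. Each run is the 250 bases before the RefSeq transcript start on GRCm38.p6, 5′ to 3′ on the gene's strand: Lhx9 at chr1:138842445-138842694 (minus), Emx2 at chr19:59458440-59458689 (plus), Akr1cl at chr1:65032760-65033009 (minus) and Pnlip at chr19:58670115-58670364 (plus). The Lhx9 and Emx2 windows lie within the gene spans given above, so they precede a transcript start inside the span and not its outermost 5′ end. Capitals mark the motif AGATAA, read on either strand (TTATCT on the other).
Lhx9: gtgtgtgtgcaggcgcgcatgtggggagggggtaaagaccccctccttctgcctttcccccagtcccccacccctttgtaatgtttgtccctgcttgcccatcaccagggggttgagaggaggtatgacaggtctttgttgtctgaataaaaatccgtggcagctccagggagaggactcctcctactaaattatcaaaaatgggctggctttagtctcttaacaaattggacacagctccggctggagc
Emx2: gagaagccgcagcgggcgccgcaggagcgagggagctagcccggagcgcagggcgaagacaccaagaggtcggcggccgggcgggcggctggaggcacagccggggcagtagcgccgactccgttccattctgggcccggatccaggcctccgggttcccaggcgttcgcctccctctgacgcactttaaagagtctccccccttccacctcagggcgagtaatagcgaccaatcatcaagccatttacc
Akr1cl: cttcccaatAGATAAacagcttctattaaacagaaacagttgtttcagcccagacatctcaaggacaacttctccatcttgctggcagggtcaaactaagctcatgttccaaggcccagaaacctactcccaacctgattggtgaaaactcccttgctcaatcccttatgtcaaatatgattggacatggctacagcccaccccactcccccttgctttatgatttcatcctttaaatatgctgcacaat
Pnlip: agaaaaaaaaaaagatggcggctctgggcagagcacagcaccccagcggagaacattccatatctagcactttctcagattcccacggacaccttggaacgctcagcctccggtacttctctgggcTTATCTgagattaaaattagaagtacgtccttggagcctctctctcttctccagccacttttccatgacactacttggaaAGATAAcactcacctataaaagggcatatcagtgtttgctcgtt
The motifs searched on both strands were AGATAA for the family of GATA factors, TAATTA for homeodomain proteins and AAGGTCA for NR5A receptors (the last added after the data were seen), and none overlaps another in these 4 windows. Lhx9 and Emx2 held none of them, Akr1cl held 1 AGATAA and Pnlip 2. Of the 15 genes with the largest E11.5 ratios 12 had a window, and AGATAA was in 3 of them (Akr1cl, Pglyrp1 and Pnlip). Of the 15 with the largest E10.5 ratios 10 had a window, and it was in 1 (Cck). Over all 32851 promoter windows of the same length AGATAA was in 9.99%, TAATTA in 4.84% and AAGGTCA in 4.08%. A match is a run of letters and no evidence of binding.

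The leading E11.5 genes were nearly absent at E10.5. Kctd14, a gene of the BTB/POZ potassium channel domain family (chr7:97451323-97459557, plus strand), had 1341 CPM at E11.5, against 0 UMIs at E10.5, at least 566-fold higher against 3 UMIs of the E10.5 sum. After thinning it was found in 66.9% of E11.5 cells (64.2% to 69.6%; 81.2% unthinned), against 0 of 134 E10.5 cells, which allows up to 2.24%, and in 7.81% of E11.5 endothelial cells. Lgals7 (galectin-7) had 849 CPM, against 2.37 CPM (3 UMIs), a ratio of 358 (123 to 1738). Akr1cl, an aldo-keto reductase gene, had 809 CPM, against 2.37 CPM (3 UMIs), a ratio of 342 (117 to 1657). Serpinb6b, a serine protease inhibitor gene, had 532 CPM, against 0.790 CPM (1 UMI), a ratio of 674 (121 to 26634). The order of these genes rests on 0 to 3 UMIs at E10.5 and is not resolved by their intervals.

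The other 11 genes of this group were Pglyrp1, Adam8, Cdkn1a, Runx1, Wnt6, Bst2, Bmp2, Fndc5, Fst, Pnlip and Pnliprp2. Their E11.5 levels lay between 63.1 CPM (Bmp2) and 378 CPM (Fst), each against 0 to 8 UMIs at E10.5. Pglyrp1, a peptidoglycan recognition protein gene, had 195 CPM, against 1 UMI, and the metalloprotease gene Adam8 103 CPM, against 1 UMI. Bst2 (tetherin), an interferon-inducible gene, had 198 CPM, against 0 UMIs, at least 83.6-fold higher. Among cells with an Lhx9 UMI the smallest ratio of the 15 was 15.04 for Bmp2, computed against the floor.

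**Figure D2:**
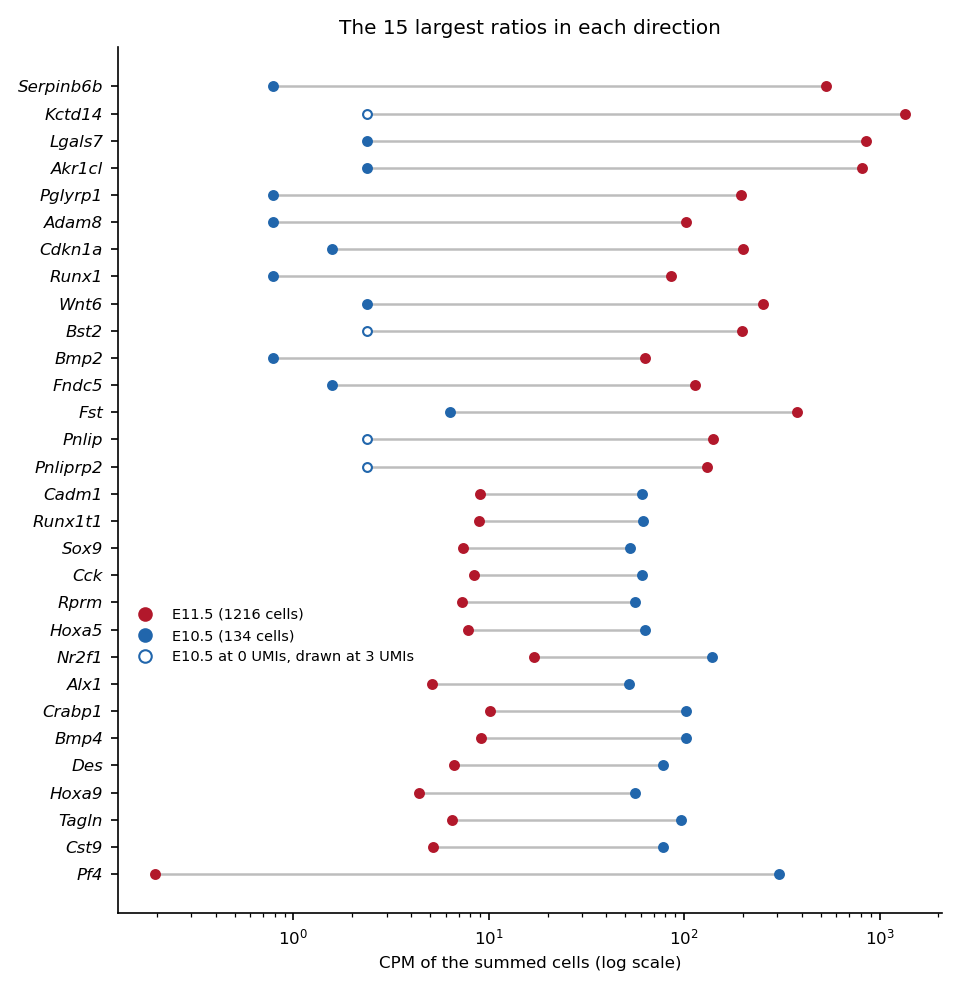
Genes at both ends of the ranking, 15 each way with 50 CPM or more in at least 1 sum, ordered from the highest ratio at the top to the lowest at the bottom, with E11.5 levels in red and E10.5 levels in blue on a log CPM axis. Open circles are genes with 0 UMIs at E10.5, drawn at 3 UMIs, and the E11.5 points of the upper 15 lie between 63.1 CPM and 1341 CPM.

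The plot of the extreme genes shows that the upward differences were between low levels at E10.5 and over 60 CPM at E11.5. The downward ones, Pf4 apart, were between levels both above 4 CPM. The low ends of the upward and downward genes overlap, as Fst at E10.5 stood above Hoxa9 at E11.5.

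Genes better known from pancreas and skin formed part of the E11.5 profile. The list of pancreatic-type lipase and barrier genes was drawn up with these libraries' results known, so its direction is no separate evidence. All 9 of the 11 that passed the floor did so through their E11.5 level alone and so had to be higher, and 7 of them had 0 UMIs at E10.5. Pnlip (pancreatic lipase) had 139.5 CPM at E11.5, against 0 UMIs at E10.5 (at least 58.9-fold). Pnliprp2 (pancreatic lipase-related protein 2) had 131 CPM, against 0 UMIs (at least 55.5-fold), and the skin transglutaminase gene Tgm3 104 CPM, against 0 UMIs (at least 44.1-fold). Sprr2d, a cornified envelope gene, had 82.8 CPM, against 0 UMIs. Thinned Tgm3 shares were 18.3% of E11.5 cells (16.1% to 20.5%; 35.9% unthinned), against 0 of 134 at E10.5, and 0 of 64 in E11.5 endothelial cells, which allows up to 4.69%.

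Several of these genes were at their in vivo maximum at E11.5. Over the 5 stages in order Pnlip had 0, 139.5, 61.2, 14.3 and 2.94 CPM, and Pnliprp2 0, 131, 38.8, 3.55 and 0.556 CPM. Tgm3 had 0, 104, 21.6, 2.16 and 0.635 CPM over the same stages. Kctd14, by contrast, had 941, 856 and 554 CPM from E12.5 to E14.5, and Lgals7 1274, 979.6 and 891 CPM. In Induced D6 cells Kctd14 had 667 CPM, Lgals7 496 CPM, Pnlip 25.4 CPM and Tgm3 12.1 CPM.

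**Figure D3:**
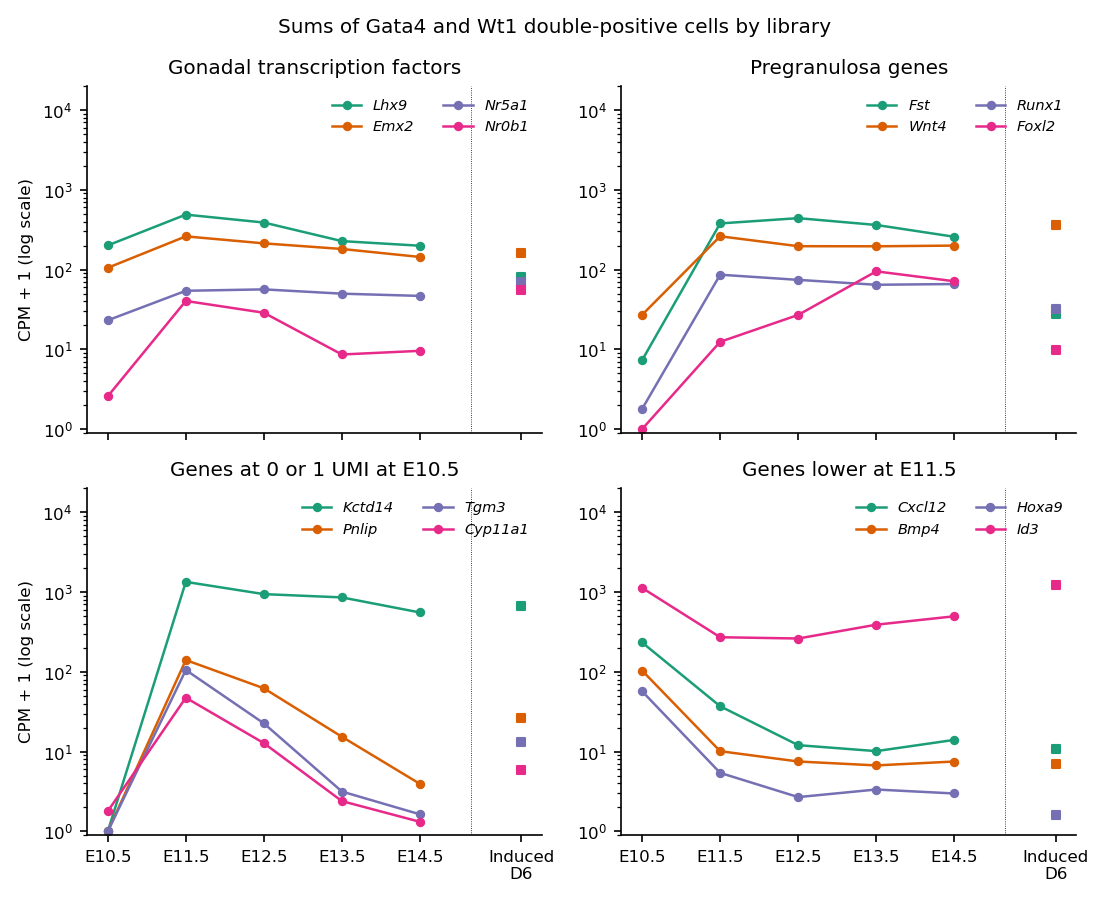
Levels of selected genes in the summed double-positive cells of the 5 in vivo libraries, in stage order, and of Induced D6 (squares), as CPM + 1 on a log axis, 1 library per point. Kctd14, Pnlip, Tgm3 and Cyp11a1 had 0 or 1 UMI at E10.5 and their highest in vivo level at E11.5, while Foxl2 had its highest at E13.5.

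The stage plot sets apart genes that stayed high after E11.5, such as Kctd14, Fst and Wnt4, from genes such as Pnlip and Tgm3, which were under 3 CPM by E14.5. Of the genes lower at E11.5, Bmp4, Cxcl12 and Hoxa9 remained under 40 CPM in every later library, and Id3 did not.

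Several pregranulosa genes were higher at E11.5, on a list drawn up with earlier results known. Of 16 listed, 12 passed the floor and each of these was at least 2-fold higher, but 9 of the 12 passed through their E11.5 level alone, so their count and median are no support. The 3 that were at 10 CPM or more at E10.5 were Wnt4, Rspo1 and Kitl. The median log2 ratio of the 12 was 4.28, against -0.06 over all genes, and 3.99 among cells with an Lhx9 UMI. Fst (follistatin, an activin antagonist; chr13:114452290-114458951, minus strand) had 378 CPM at E11.5, against 6.32 CPM (8 UMIs) at E10.5, a ratio of 59.8 (30.3 to 139). Runx1, a transcription factor of the supporting lineage, had 85.2 CPM, against 0.790 CPM (1 UMI), a ratio of 108 (19.3 to 4263). Bmp2 had 63.1 CPM, against 0.790 CPM (1 UMI), and Wnt6 252 CPM, against 2.37 CPM (3 UMIs). Msx1, a homeobox gene, had 73.8 CPM, against 2.37 CPM (3 UMIs), a ratio of 31.1 (10.6 to 151). Kitl, the ligand of the germ cell receptor KIT, stood at 189 CPM, against 90.0 CPM, a ratio of 2.10 (1.75 to 2.56) that was 1.73 among cells with an Lhx9 UMI.

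Later ovarian genes were only beginning to be detected. Foxl2 had 11.4 CPM at E11.5 (233 UMIs), against 0 UMIs at E10.5, at least 4.82-fold higher, and then 26.0, 94.0 and 70.3 CPM from E12.5 to E14.5. Its thinned share at E11.5 was 2.96% (2.08% to 4.08%; 10.53% unthinned), against 0 of 64 endothelial cells, which allows up to 4.69%, so at this depth it cannot be set apart from background by share alone. Lgr5, a receptor for R-spondins, had 4.75 CPM, against 0 UMIs, under the floor of 10 CPM, and 16.04, 49.6 and 57.6 CPM in the 3 later gonad libraries.

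Among Wnt genes 9 of the 14 past the floor were higher and 4 lower, against 12.1% and 8.13% of all genes. Their median log2 ratio was 2.05, and 6 of the 14 passed through E11.5 alone and 2 through E10.5 alone. The ligands Wnt4 (260.3 CPM at E11.5, against 26.1 CPM at E10.5; ratio 9.99, 7.10 to 14.52) and Wnt5a (45.4 CPM, against 6.32 CPM; ratio 7.19, 3.63 to 16.7) were higher, as was Wnt6. Rspo1, the R-spondin of the fetal ovary, had 167 CPM, against 39.5 CPM, a ratio of 4.22 (3.19 to 5.70). Of the target genes, Sp5 had 45.2 CPM, against 0 UMIs (at least 19.1-fold higher), Axin2 22.6 CPM, against 5.53 CPM, and Lef1 57.3 CPM, against 12.6 CPM. The secreted inhibitors Sfrp1 (84.8 CPM, against 309 CPM) and Sfrp2 were lower, and so were Ccnd1 and Rspo3.

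Sertoli genes were split between the stages and steroid synthesis genes were in part higher at E11.5. Of 7 Sertoli-list genes past the floor, 4 were higher and 3 lower, against 12.1% and 8.13% of all genes. Of the 7, 3 passed through E11.5 alone and 3 through E10.5 alone, so this split is no support. Of 6 steroid synthesis genes past it, 3 were higher, none lower and 3 within 2-fold, with a median log2 ratio of 1.26 (1.18 among cells with an Lhx9 UMI); 2 of the 6 passed through E11.5 alone. Dmrt1 had 13.53 CPM at E11.5, against 0 UMIs at E10.5 (at least 5.71-fold), whereas Sox9, a transcription factor gene of testis determination, had 7.401 CPM, against 52.9 CPM (7.15-fold lower, 5.28 to 9.59). Cst9, a cystatin gene of early Sertoli cells, had 5.20 CPM, against 77.4 CPM (14.9-fold lower, 11.2 to 19.8). It was 21.4-fold lower among cells with an Lhx9 UMI. Amh had 6 UMIs at E11.5, against 0. Cyp11a1, which makes pregnenolone from cholesterol, had 46.4 CPM, against 0.790 CPM (1 UMI), a ratio of 58.7 (10.51 to 2322), and then 11.8, 1.40 and 0.318 CPM from E12.5 to E14.5. Fdxr and Star, which serve the same step, were higher (45.3 CPM, against 11.1 CPM, and 14.6 CPM, against 4.74 CPM), while Cyp17a1, Hsd3b1 and Cyp21a1 stayed under the floor of 10 CPM at both stages. The 8 adrenocortical markers, which share Cyp11a1, Star, Nr5a1 and Nr0b1 with these lists, summed to 176 CPM at E11.5, against 47.4 CPM at E10.5.

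**Figure D4:**
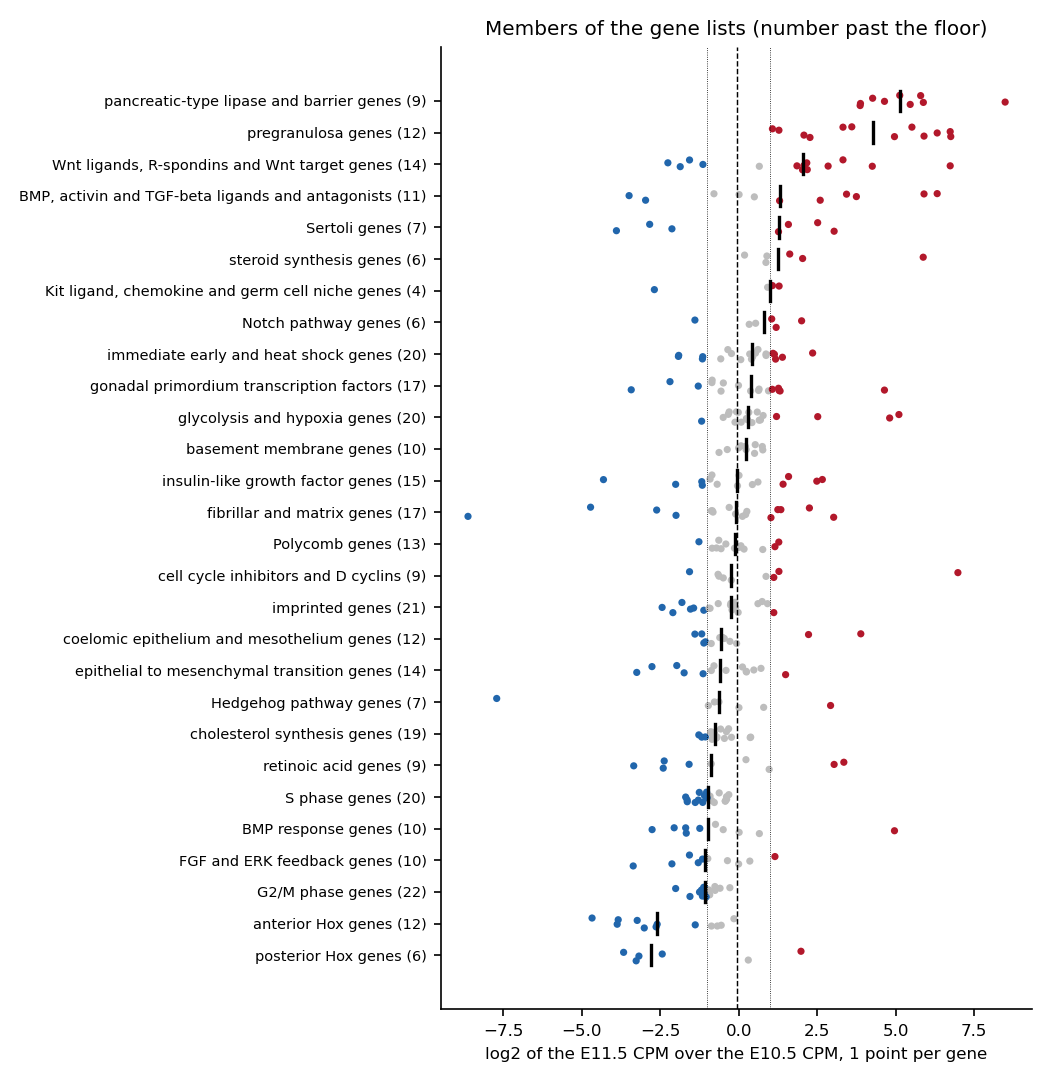
The log2 ratio of the E11.5 over the E10.5 CPM for each gene past the floor in the lists with at least 4 such genes, ordered by the list median (black bar), with genes at least 2-fold higher in red and lower in blue. The dashed line is the median of all genes (-0.06) and the dotted lines are 2-fold; pregranulosa genes lie wholly to the right and no S phase or G2/M gene lies past 2-fold on that side.

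The list plot places the lipase and barrier, pregranulosa and Wnt lists at one end and the Hox genes at the other, with most metabolic and matrix lists spread across the median of all genes. Some genes stand in more than 1 list.

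BMP and activin genes differed in both directions. Of 11 ligand and antagonist genes past the floor 6 were higher, 2 lower and 3 within 2-fold, and 6 of the 11 passed through E11.5 alone. Of the BMP ligands, Bmp4 had 9.12 CPM at E11.5, against 103 CPM at E10.5 (11.3-fold lower, 8.93 to 14.2), and Bmp5 1.72 CPM, against 13.4 CPM, while Bmp2 and Bmp7 were higher. Bmp4 was 7.10-fold lower among cells with an Lhx9 UMI. Its thinned share was 2.06% (1.33% to 3.02%; 10.9% unthinned) at E11.5, against 26.9% (19.6% to 35.2%; 44.0% unthinned) at E10.5, and 1.56% and 10.0% in endothelial cells. The inhibin and activin subunit genes Inha (85.3 CPM, against 7.90 CPM) and Inhbb (31.8 CPM, against 2.37 CPM) were higher, together with the antagonist gene Fst. Of 10 BMP response genes past the floor 5 were lower and 1 higher, with a median log2 ratio of -0.99. Among these 10, 3 passed through E10.5 alone and 1 through E11.5 alone. For both lists the shares over all genes were 12.1% higher and 8.13% lower. Id3, which encodes an inhibitor of basic helix-loop-helix factors, had 271 CPM at E11.5, against 1126 CPM at E10.5 (4.16-fold lower, 3.92 to 4.41), and Id2 194 CPM, against 625 CPM. Msx1 was the exception in the other direction.

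Other signalling lists were mixed, to be read beside the 12.1% of all genes that were higher and the 8.13% that were lower. Passage of the floor was through E10.5 alone for 4 of 10 FGF genes, 1 of 9 retinoic acid genes and 1 of 6 Notch genes. It was through E11.5 alone for 2 of 9 retinoic acid genes and 1 of 6 Notch genes. In the FGF list 5 of 10 were lower and 1 (Fgfr2) higher, with Dusp6, an ERK phosphatase gene induced by FGF, at 21.3 CPM at E11.5, against 63.2 CPM at E10.5 (2.97-fold lower, 2.31 to 3.78), Fgf10 at 2.30 CPM, against 23.7 CPM, and Fgf9 at 3.43 CPM, against 15 CPM. In the retinoic acid list 4 of 9 were lower, among them the binding protein genes Crabp1 (10.1 CPM, against 103 CPM) and Crabp2 (40.04 CPM, against 208 CPM) and the receptor gene Rarb. The enzyme gene Cyp26b1, which degrades retinoic acid, was higher (19.5 CPM, against 3 UMIs; ratio 8.21, 2.79 to 40), as was the synthetic enzyme gene Aldh1a1. Aldh1a2, the other synthetic enzyme gene, had 104 CPM, against 192 CPM, under the 2-fold mark. In the Hedgehog list Foxf1 was lower (1 UMI at E11.5, against 13) and the coreceptor gene Boc higher (17.99 CPM, against 2.37 CPM), while Gli1 stayed under the floor. In the Notch list 3 of 6 were higher (Numb, Maml3 and Hey1) and Notch3 was lower.

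Most of the Hox genes that could be measured were lower at E11.5. Of 38 in the files 18 passed the floor, 9 of them through E10.5 alone. Of the 18, 12 were lower and 1 higher, against 8.13% and 12.1% of all genes. Of 12 anterior genes past the floor 8 were lower and none higher, with a median log2 ratio of -2.62 (-2.36 among cells with an Lhx9 UMI), and of 6 posterior genes 4 were lower and 1 higher, with a median of -2.81 (-1.69). Hoxa5 had 7.84 CPM at E11.5, against 63.2 CPM at E10.5 (8.06-fold lower, 6.08 to 10.6). Hoxa7 had 21.1 CPM, against 131 CPM, and Hoxa9 4.41 CPM, against 56.1 CPM (12.7-fold lower, 9.18 to 17.5). Hoxb4, Hoxb8 and Hoxc9 were lower too, at 3.77, 0.588 and 22.6 CPM, against 35.5, 15 and 122 CPM. Hoxd genes did not follow, with Hoxd9 at 120.1 CPM, against 97.1 CPM, Hoxd8 at 17.7 CPM, against 19.7 CPM, and Hoxd10 higher at 18.7 CPM, against 4.74 CPM. In the unselected E10.5 cells Hoxa9 stood at 51.3 CPM and Hoxb9 at 48.9 CPM. In the selected cells Hoxb9 had 2.35 CPM at E11.5, against 21.3 CPM at E10.5, and 2.49 CPM, against 5.73 CPM (4 UMIs), among cells with an Lhx9 UMI. In the 48 E10.5 cells left when UMIs of other mesoderm or neural genes were barred as well, Hoxb9 had 1 UMI, too few to give a ratio.

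The gene with the largest ratio on the E10.5 side rested on 1 cell. Pf4, the platelet chemokine gene, had 4 UMIs at E11.5, against 387 at E10.5, and 385 of the 387 were in a single barcode of 22032 UMIs that also held 34 UMIs of the platelet gene Ppbp. The next genes, in order, were Cst9, Tagln, Hoxa9 and Des. Tagln, a smooth muscle gene, had 6.47 CPM at E11.5, against 96.3 CPM at E10.5 (14.9-fold lower, 11.55 to 19.2). Des, an intermediate filament gene, had 6.67 CPM, against 78.2 CPM (11.7-fold lower, 8.96 to 15.3). Alx1, a paired-type homeobox gene of early mesenchyme, had 5.15 CPM, against 52.1 CPM, and Nr2f1, a nuclear receptor gene, 17.0 CPM, against 138 CPM (8.15-fold lower, 6.75 to 9.80). Rprm, Cck, Runx1t1 and Cadm1 were 6.74-fold to 7.73-fold lower. Among cells with an Lhx9 UMI the smallest ratio of these genes, Pf4 apart, was 3.21 for Runx1t1.

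Cxcl12 (SDF1), the chemokine that guides migrating germ cells, was lower at E11.5, with 36.0 CPM, against 232 CPM at E10.5 (6.44-fold lower, 5.61 to 7.39; 6.09-fold among cells with an Lhx9 UMI). Its thinned share was 8.72% (7.19% to 10.4%; 24.0% unthinned) at E11.5, against 44.8% (36.2% to 53.6%; 66.4% unthinned) at E10.5, and 3.12% and 3.57% in endothelial cells of the same libraries. In the 3 later gonad libraries the levels were 11.04, 9.14 and 13.02 CPM, in stage order. Of the 4 germ cell niche genes past the floor, Kitl and Il6st were higher and Sdc2 was under 2-fold.

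Epithelial genes of the coelomic lining were, with exceptions, at or below their E10.5 level. Krt18, a simple epithelial keratin gene, had 74.6 CPM at E11.5, against 197 CPM at E10.5 (2.63-fold lower, 2.29 to 3.01), and Ezr (ezrin) 54.4 CPM, against 123 CPM. Upk3b, a uroplakin gene of mesothelium, had 65.5 CPM, against 93.2 CPM, under the 2-fold mark. Krt7 (46.8 CPM, against 3.16 CPM; ratio 14.8, 5.76 to 54.4) and Podxl (136 CPM, against 29.2 CPM; ratio 4.67, 3.38 to 6.64), which encodes podocalyxin, were higher. In all 4 of 12 genes past the floor were lower and 2 higher, against 8.13% and 12.1% of all genes, with a median log2 ratio of -0.56. Of the 12, 1 (Krt7) passed through E11.5 alone, so its direction was set by the floor.

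Genes of epithelial to mesenchymal transition were mostly lower or within 2-fold. Twist2, Twist1, Snai1, Cdh2 and Prrx1 were lower, with Twist1 at 4.07 CPM at E11.5, against 27.6 CPM at E10.5, and Cdh2 (N-cadherin) at 22.7 CPM, against 75.8 CPM. Prrx1 had 7.55 CPM, against 16.6 CPM, but 7.48 CPM, against 1.43 CPM (1 UMI), among cells with an Lhx9 UMI, so its direction did not hold there. Snai2 was higher at 66.7 CPM, against 23.7 CPM. All 14 listed genes passed the floor, 4 of them through E10.5 alone. Of the 14, 5 were lower and 1 higher, against 8.13% and 12.1% of all genes. The list's median log2 ratio was -0.60 and changed sign to 0.10 among cells with an Lhx9 UMI. Cartilage collagen genes stood out among matrix genes, with Col2a1 at 0.539 CPM, against 14.2 CPM, and Col9a1 at 2 UMIs, against 49 UMIs. Col6a1, Col6a2, Col5a1, Bgn and Dcn were higher, of which Col6a1 had 12.8 CPM, against 2 UMIs. None of the 10 basement membrane genes past the floor differed by 2-fold, and their median log2 ratio was 0.22.

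Many proliferation genes were lower at E11.5, while cell cycle inhibitors were divided. Of 20 S phase genes 10 were at least 2-fold lower and none higher (median log2 ratio -0.98), and of 22 G2/M genes 15 were lower and none higher (median -1.08). The shares over all genes were 8.13% lower and 12.1% higher, and 3 of the S phase genes passed the floor through E10.5 alone. Rrm2, a ribonucleotide reductase subunit gene, had 102 CPM at E11.5, against 328 CPM at E10.5 (3.23-fold lower, 2.898 to 3.59), and Pcna 49.0 CPM, against 128 CPM. Hmmr, a mitotic spindle gene, had 29.8 CPM, against 120.0 CPM (4.03-fold lower, 3.35 to 4.82), and Top2a 168 CPM, against 366 CPM. Of 9 cell cycle inhibitor and D cyclin genes past the floor 3 were higher, 1 lower and 5 within 2-fold, with a median log2 ratio of -0.24. Of the 9, 2 (Cdkn1a among them) passed through E11.5 alone, so their direction was set by the floor. The inhibitor gene Cdkn1c (p57) had 1877 CPM, against 865 CPM, a ratio of 2.17 (2.04 to 2.30). Cdkn1a (p21) had 199 CPM, against 1.58 CPM (2 UMIs), a ratio of 126 (34.9 to 1043). Cyclin D1 (Ccnd1) had 28.2 CPM, against 83.7 CPM, and the Polycomb methyltransferase gene Ezh2 124 CPM, against 299 CPM. The medians among cells with an Lhx9 UMI were -0.99 for S phase and -1.18 for G2/M.

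Metabolic lists differed less, and their counts stand beside 12.1% of all genes higher and 8.13% lower. Passage of the floor was through E11.5 alone for 3 of 20 glycolysis and hypoxia genes and 4 of 20 immediate early and heat shock genes. It was through E10.5 alone for 2 of the latter 20 and for 1 of 19 cholesterol synthesis genes. Of 20 glycolysis and hypoxia genes 4 were higher and 1 lower (median log2 ratio 0.30), the higher ones being Adm (adrenomedullin; 81.4 CPM at E11.5, against 3 UMIs at E10.5), Ndrg1, Hk1 and Pdk1, and the lower one the lactate transporter gene Slc16a3. Of 19 cholesterol synthesis genes 3 were lower and none higher (median -0.75). Immediate early and heat shock genes, which respond to dissociation, had 5 of 20 higher and 4 lower, with Klf4 at 48.4 CPM, against 9.48 CPM, Fos at 366 CPM, against 239 CPM, and Hspa1a at 3.33 CPM, against 12.6 CPM.

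Imprinted and growth genes of early embryonic tissue were in part lower. Dlk1 had 158 CPM at E11.5, against 859 CPM at E10.5 (5.43-fold lower, 5.07 to 5.82), and Meg3, a noncoding RNA of the same locus, 322 CPM, against 1128 CPM (3.51-fold lower, 3.31 to 3.71). H19 had 734 CPM, against 787 CPM. Lin28a and Lin28b, RNA-binding protein genes that block let-7 maturation, were lower (0.637 and 4.31 CPM, against 12.6 and 17.4 CPM). Igfbp2 was higher (296 CPM, against 52.9 CPM; ratio 5.60, 4.41 to 7.24), as were Igfbp5, Igf1 and Igfbp6. Xist had 958 CPM, against 1036 CPM, and the 4 Y-linked genes Ddx3y, Eif2s3y, Kdm5d and Uty had 0 UMIs at both stages.

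The E11.5 cells were not uniform. Of 1216, 325 held a Upk3b UMI, 346 a Tcf21 or Pdgfra UMI without Upk3b, and 545 none of these, at medians of 18308, 13743 and 10729 UMIs; the E10.5 numbers were 53, 37 and 44. These groups are ranges of marker UMIs, not cell types, and depth enters their definition. Kctd14 had 409, 981 and 2447 CPM in these groups, in that order, at E11.5, Fst 77.7, 221 and 768 CPM, and Wnt4 92.8, 238 and 425 CPM. Cdkn1c had 744, 1691 and 3019 CPM, against 666, 1044 and 970.0 CPM at E10.5. Rrm2 ran the other way, with 176, 108 and 31.5 CPM at E11.5, against 325, 292 and 365 CPM at E10.5.

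**Figure D5:**
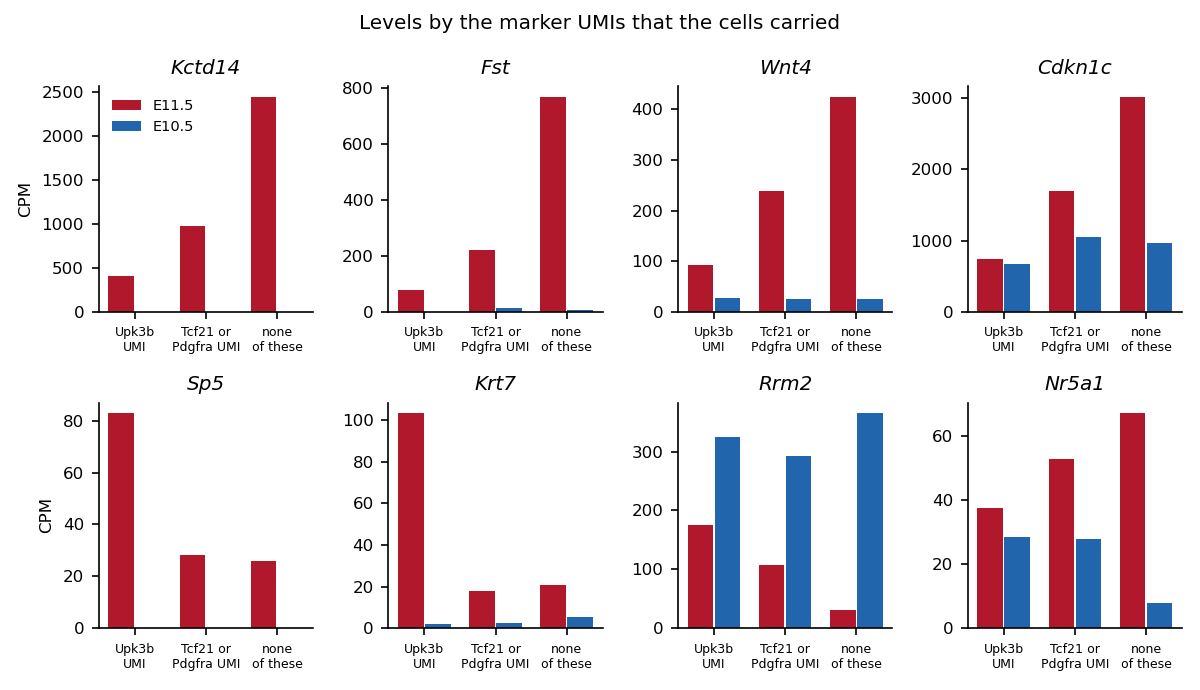
CPM of selected genes in cells with a Upk3b UMI, with a Tcf21 or Pdgfra UMI but no Upk3b UMI, and with none of these, at E11.5 (red) and E10.5 (blue), with all bars starting at 0 and 1 library per stage. At E11.5 Kctd14, Fst, Wnt4 and Cdkn1c were highest and Rrm2 lowest in cells with none of the markers, and Sp5 and Krt7 were highest in cells with Upk3b.

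Within the cells with a Upk3b UMI the Wnt target gene Sp5 stood at 82.8 CPM at E11.5, against 28.1 and 26.1 CPM in the other groups, and Krt7 at 103 CPM, against 17.9 and 20.7 CPM. Lhx9 was at 620.2 CPM in the Upk3b cells and 395 CPM in cells with none of the markers, against 313 and 80.8 CPM at E10.5. Rrm2 had a smaller level at E11.5 than at E10.5 in each group. The difference was smallest in the Upk3b cells, where it was under the 2-fold mark. Kctd14 had no UMI in any of the E10.5 groups.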

How the data were processed

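The authors deposited unnormalized UMI counts for every gene in every barcode. Per the submitters' processing notes these were made with Cell Ranger 3.0.2 on mm10, and no source used here gives the settings for calling cells. The cells and gene lists were chosen with earlier results of these data known. Counts were summed over the selected cells of each library and divided by the sum (CPM). A gene with 0 UMIs took 3 UMIs of its sum. Ratios carry exact conditional binomial 95% intervals and shares exact Clopper-Pearson intervals, for counting error only, in Python 3.11.15 (numpy 2.4.6, scipy 1.17.1, pandas 2.3.3, matplotlib 3.10.9). Genes needed 10 CPM in either sum. Named genes are the 15 largest ratios each way at 50 CPM or more (without selecting, mitochondrial, ribosomal protein, haemoglobin and clone-named genes), the 4 most different genes of each of 29 lists, fixed key genes, and others chosen after their values were seen. Doublets were kept, apart from 1 alternative that left out the highest Scrublet scores (scanpy 1.11.5). Coordinates are GENCODE vM21 (30934 of 31053 genes matched) and promoters RefSeq. The code was tested on simulated counts.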

Additional observations from a re-analysis of the deposited data

How the results depend on the processing

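Each of 16 alternative settings was compared with the main counts of 454 and 163 genes (4-fold higher and lower) and 1034 and 693 (2-fold). With a floor of 50 CPM they were 143, 34, 314 and 226, over 3299 genes. With no floor 4667 were 4-fold lower, 1881 2-fold higher and 6267 2-fold lower. These lower calls are no count of falling genes, because a gene with 0 UMIs at E10.5 was set at 2.37 CPM there. Low genes seen only at E11.5 were thus scored as lower, such as Hba-a2 with 9 UMIs, against 0 (log2 -2.43). Lower calls also increased with at least 2 Gata4 and 2 Wt1 UMIs (300 and 1223; 688 and 22 cells), without cells with Tcf21 or Pdgfra UMIs (390 and 1239) and after thinning to 5000 UMIs (265 and 1107), each with fewer cells. The share of kept barcodes that met the rule was 13.8% and 0.606% after thinning to 3000 UMIs and 25.3% and 0.351% with at least 2 UMIs of each gene, at E11.5 and E10.5. The other settings, among them another scaling and the doublet filter, stayed within 1.5 times. Of the 119 genes at least 2-fold that were named by ratio, by list rank or as key genes, 2 changed sign: Col6a1 (log2 -0.060, a bound, with 2 UMIs of each gene) and Hoxb9 (0.044, on 1 E10.5 UMI, with Lhx9 required and other mesoderm or neural UMIs barred, an alternative added after seeing the data). Genes chosen after their values were seen are not among the 119 and were not followed through the settings. Prrx1, one of these, was higher with an Lhx9 UMI required (log2 2.38, on 1 E10.5 UMI). With 2 UMIs of each gene 187 of the 454 stayed 4-fold higher and 41 changed sign, and those 41 are bounds, with 0 UMIs in the 22 E10.5 cells (3 UMIs are 12.9 CPM there). Of the 119, 15 fell under 2-fold with 2 UMIs of each gene (Lhx9, Foxl2, Dmrt1, Kitl, Star, Boc, Aldh1a1, Hey1, Cdkn1b, Ndrg1, Cyp51, Hspa1a, Igfbp6, Col6a1 and Cbx6) and 11 after thinning to 5000 UMIs (Lhx9, Nr5a1, Foxl2, Dmrt1, Maml3, Cdkn1b, Pdk1, Cyp51, Klf2, Lin28b and Col6a1). With an Lhx9 UMI required 112 stayed 2-fold, without Lhx9, Emx2, Nr5a1 and Kitl among them, and 105 did so with other mesoderm or neural UMIs barred too. Without cells with Tcf21 or Pdgfra UMIs Star, Ezr and Hey1 were among those that fell under, and without those with Foxf1, Foxd1, Pax2 or Pax8 UMIs Maml3, Cdkn1c, Cyp51 and Phc1. Depth at E10.5 limits every low gene. No paired analysis was possible because each stage is 1 library.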
